A study of Mus musculus with 3 samples.

Results

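Small nucleolar RNA host genes are long noncoding RNA genes whose introns carry small nucleolar RNAs (snoRNAs). In mouse they have symbols of the form Snhg followed by a number. They were taken here as the oligos with exactly 1 gene symbol of that form in the platform annotation, which gave 10 genes of 19635 genes tested: Snhg3, Snhg5, Snhg6, Snhg7, Snhg8, Snhg9, Snhg10, Snhg16, Snhg17 and Snhg20. Each was measured by 1 oligo, and all 10 had a value on every array. Of the 19635, 14746 are gene symbols, and the others are single oligos without exactly 1 symbol, counted here as genes. The members were chosen by symbol, and the family was selected on the deposited log2 ratios of these same 3 arrays, whose values were known when it was proposed. Its ratios are therefore given as a description, and none of them is a test of the family. RefSeq lists 17 symbols of this form, of which the other 7 were not analysed here, and 1 further oligo, listed with an Snhg symbol and a second symbol, was left out.

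The study compared developing kidney at 13.5 dpc (days post coitum) with metanephric mesenchyme at 10.5 dpc, in CD1 mouse embryos, on 3 2-colour oligonucleotide arrays. On each array both RNAs were hybridised together, with no common reference, and the 3 arrays form 1 group. Per the labels, tissue was microdissected from embryos of both sexes as a pool, and the hybridised material was amplified RNA. No transgene, mutation or treatment is named for either tissue. Each gene has 1 log2 ratio of the channels per array. The labels give the kidney as channel 1 and the mesenchyme as channel 2, but do not say which dye each carried or which RNA stands on top of the ratio. The direction is thus unknown, and values are described by their deposited sign, positive or negative, without naming the tissue with more RNA. A ratio gives no level in either tissue, so whether a marker is present in a tissue cannot be read from it, and fewer cells of a type and less RNA per cell cannot be told apart.

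A host transcript is spliced, its introns are trimmed to snoRNAs, and in many hosts the spliced exons are then degraded in the cytoplasm by nonsense-mediated decay. The snoRNAs join proteins in the nucleolus as guides. Box C/D snoRNAs direct 2'-O-methylation and box H/ACA snoRNAs direct pseudouridylation of ribosomal RNA, and a few act in cutting the ribosomal RNA precursor. Many host genes belong to the 5' TOP class, whose transcripts begin with a pyrimidine tract and which also holds the ribosomal protein genes.

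The sequence at the start of the genes is shown first, as the symbols did not select for it. The motifs searched were, however, chosen after the sequences had been seen. RefSeq start-site windows (250 bases before to 50 after the annotated start, build GRCm38.p6) were found for 9 of the 10 genes, with none used for Snhg6. The letters TATAAA, the core of the TATA box that places transcription initiation, were searched on both strands. They occurred in the windows of 5 of these 9 genes, Snhg9, Snhg5, Snhg3, Snhg8 and Snhg7, against 13.6% of all 32851 windows. From 60 bases before to 40 bases after the start and on the gene's own strand, the same 5 genes held it, against 3.48% of all windows. The lines below give those 100 bases for the 5 genes and, for contrast, for Snhg20, which has none. TATAAA stands in capitals.
Snhg9 (chr17:24719926-24720025, minus strand): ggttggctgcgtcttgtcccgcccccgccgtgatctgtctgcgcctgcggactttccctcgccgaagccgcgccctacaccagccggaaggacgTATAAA
Snhg5 (chr9:88522858-88522957, minus strand): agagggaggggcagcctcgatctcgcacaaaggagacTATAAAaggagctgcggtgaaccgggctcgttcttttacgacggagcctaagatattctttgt
Snhg3 (chr4:132353647-132353746, minus strand): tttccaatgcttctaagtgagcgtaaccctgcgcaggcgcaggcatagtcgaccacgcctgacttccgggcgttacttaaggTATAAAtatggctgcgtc
Snhg8 (chr3:123508297-123508396, minus strand): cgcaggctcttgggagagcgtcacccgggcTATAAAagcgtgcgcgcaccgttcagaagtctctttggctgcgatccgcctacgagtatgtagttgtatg
Snhg7 (chr2:26640205-26640304, minus strand): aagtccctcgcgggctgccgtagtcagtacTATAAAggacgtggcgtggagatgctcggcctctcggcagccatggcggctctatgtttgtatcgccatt
Snhg20 (chr11:117076723-117076822, plus strand): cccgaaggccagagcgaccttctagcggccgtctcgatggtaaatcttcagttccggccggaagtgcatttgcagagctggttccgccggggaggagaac

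In Snhg7 and Snhg8 the motif begins 30 bases before the annotated start, and in Snhg5 it begins 23 bases before. In Snhg3 and Snhg9 it begins after the annotated start, at base 23 and base 35 of the transcript. Snhg9 holds a second copy on the opposite strand, 120 bases before the start. Other letters were less common in the family. CACGTG, the E-box bound by factors such as Myc and Usf, was in the window of Snhg9 alone, against 7.15% of all windows. CCGGAAGT, an Ets-type site, was in those of Snhg3 and Snhg20, against 3.89%. The motifs and the narrower window were chosen after the sequences had been seen, and the matches describe letters, not binding.

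All 10 genes had a positive mean log2 ratio over the arrays, against 50.3% of all genes tested. Of the 10, 8 were positive on all 3 arrays, against 21.5% of all genes, and 0 were negative on all 3, against 19.9% of all genes. Snhg16 and Snhg7 were the 2 with arrays of both signs. The median of the 10 means was 0.35, beside 0.0020 for all genes. Means ran from 0.040 for Snhg7 to 0.85 for Snhg9, so the largest was a 1.80-fold ratio. These shares follow the contrast in which the family was noticed, and nothing is read from them beyond the values.

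**Figure D1:**
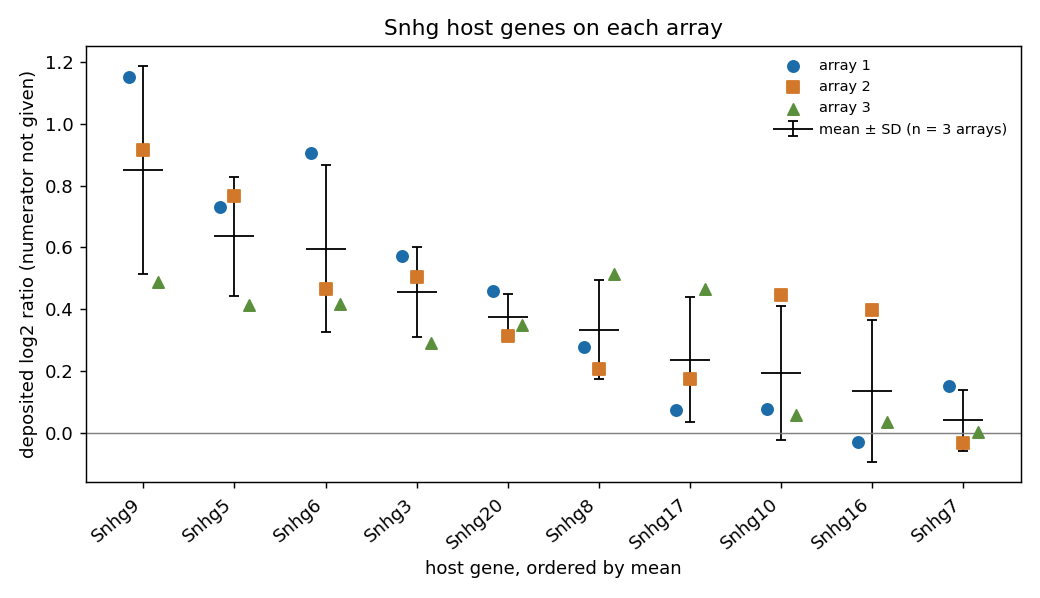
Deposited log2 ratio (vertical axis, numerator not given) of each Snhg host gene on the 3 arrays, with genes ordered by mean along the horizontal axis. Symbols are arrays, and the horizontal tick with bars is the mean ± SD over n = 3 arrays. Snhg9 to Snhg10 lie above 0 on all 3 arrays, while Snhg16 has 1 array below 0 (-0.032) and Snhg7 has 1 (-0.034).

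Among the hosts that carry box H/ACA snoRNAs, Snhg9 holds Snora78 in RefSeq. In mouse intestine Snhg9 is known as a noncoding RNA that gut microbes repress and that takes part in lipid metabolism. Its log2 ratios were 1.15, 0.92 and 0.49 on arrays 1, 2 and 3 (mean 0.85 ± 0.34, SD, n = 3 arrays), which as ratios are 2.22, 1.89 and 1.40. Array 3 was the lowest and array 1 the highest. Snhg3 holds Snora73a and Snora73b, the U17 snoRNAs, which act in cleavage of the ribosomal RNA precursor rather than in pseudouridylation. It had 0.57, 0.50 and 0.29 (mean 0.46 ± 0.15), again lowest on array 3. Snhg8, which holds Snora24, had 0.28, 0.21 and 0.51 (mean 0.33 ± 0.16), with array 3 the highest. Snhg7 holds Snora43 and Snora17. It had 0.15, -0.034 and 0.0014 (mean 0.040 ± 0.099), so it lay close to 0 on every array, and without array 1 its mean was -0.016.

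Of the box C/D hosts, Snhg6 holds Snord87. It had 0.91, 0.46 and 0.42 (mean 0.60 ± 0.27, n = 3), with array 1 standing above the other arrays. Snhg16, which holds Snord1a, Snord1b and Snord1c and is studied in human tumours, had -0.032, 0.40 and 0.036 (mean 0.13 ± 0.23). Array 2 alone lay clearly off 0, and without it the mean was 0.0018. The box C/D hosts thus covered 0.13 to 0.60 and the box H/ACA hosts 0.040 to 0.85, so the classes overlapped.

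The snoRNA genes inside Snhg5 and Snhg17 have no family symbol in RefSeq. Snhg5, an older name of which is mU50HG-b after the box C/D snoRNA U50, had 0.73, 0.77 and 0.41 (mean 0.64 ± 0.19, n = 3), or ratios of 1.66, 1.70 and 1.33. Snhg17 had 0.073, 0.17 and 0.46 (mean 0.24 ± 0.20), and without array 3 its mean was 0.12. Array 3 was the lowest for Snhg5 and the highest for Snhg17, while array 2 lay above array 1 in both.

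RefSeq places no snoRNA gene inside Snhg10 or Snhg20. Snhg10 holds Scarna13, a guide RNA of Cajal bodies, which modifies spliceosomal RNA, and the microRNA gene Mir3069. It had 0.077, 0.44 and 0.058 (mean 0.19 ± 0.22, n = 3), and without array 2 its mean was 0.068. Snhg20 holds the microRNA gene Mir6516. It had 0.46, 0.31 and 0.35 (mean 0.37 ± 0.076), the narrowest spread in the family, which was smaller than that of all but 5.07% of genes tested.

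The order of the means was Snhg9, Snhg5, Snhg6, Snhg3, Snhg20, Snhg8, Snhg17, Snhg10, Snhg16 and Snhg7. For all 9 pairs of neighbours in this order the ranges over the arrays overlapped. All genes share the 3 arrays, so neighbours were also set against each other within each array. In 3 pairs the gene with the higher mean was above its neighbour on all 3 arrays. These were Snhg9 over Snhg5, the widest step, with a mean difference of 0.22 ± 0.18 (SD, n = 3 arrays), Snhg8 over Snhg17 with 0.096 ± 0.095, and Snhg10 over Snhg16 with 0.060 ± 0.045. In the other 6 pairs at least 1 array had the opposite order, and the mean difference was smaller than its SD. Farther along the order the ranges separated: the lowest array of Snhg9, at 0.49, lay above the highest of Snhg17 and Snhg20, both at 0.46, and of Snhg10, Snhg16 and Snhg7, at 0.44, 0.40 and 0.15.

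The family's position was similar on the 3 arrays taken singly. For arrays 1, 2 and 3 in turn the median over the 10 genes was 0.37, 0.42 and 0.38, beside 0.0043, 0.030 and -0.0029 for all genes. On these arrays 9, 9 and 10 of the 10 genes were positive. The genes covered -0.032 to 1.15 on array 1, -0.034 to 0.92 on array 2 and 0.0014 to 0.51 on array 3, so the spread between members was narrowest on array 3. The median SD of a member over the arrays was 0.20, beside 0.32 for all genes.

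**Figure D2:**
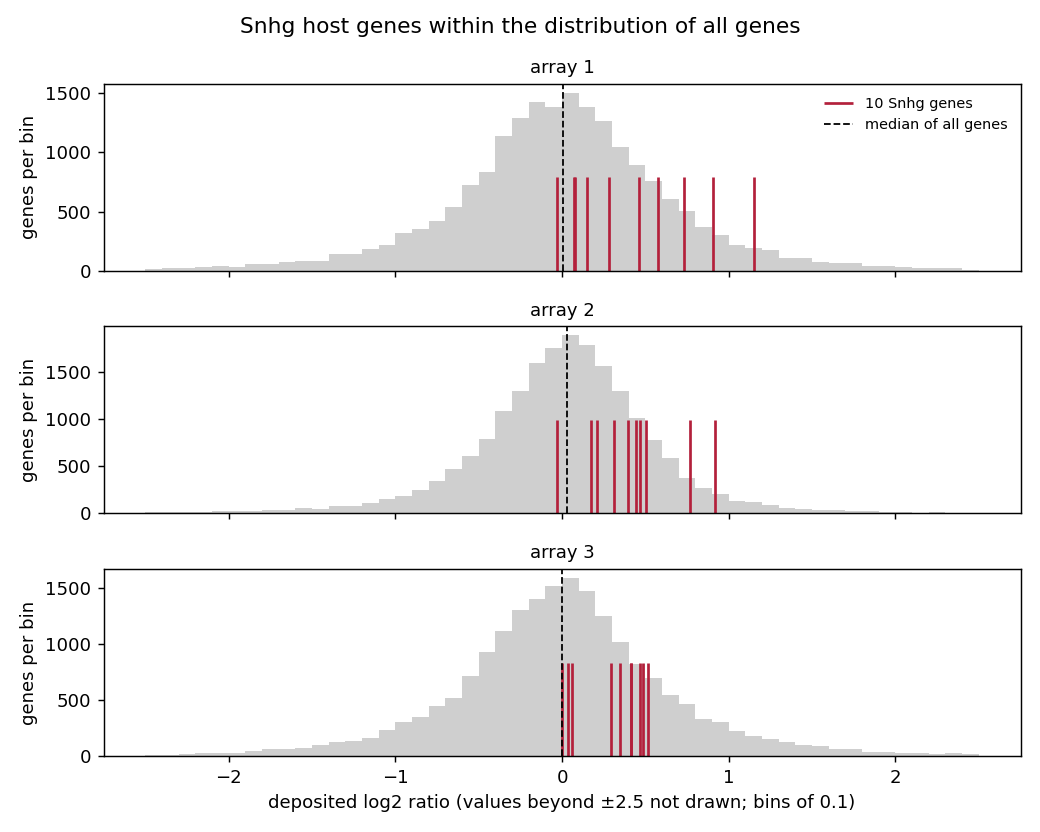
Histograms of the deposited log2 ratios of all genes tested (horizontal axis, bins of 0.1; vertical axis, genes per bin), 1 panel per array, with the 10 Snhg genes as red lines and the median of all genes as a dashed line. The red lines lie mostly right of the dashed line, at a median of 0.37, 0.42 and 0.38 on arrays 1, 2 and 3. The highest was Snhg9 on arrays 1 and 2, above 95.2% and 95.9% of genes, and Snhg8 on array 3, above 82.0%.

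In the limma test of each gene's mean ratio against 0 over all genes, with Benjamini-Hochberg adjustment, 0 of the 10 passed an adjusted p of 0.05. Over all genes 0.00509% passed, which is 1 gene, on the negative side, and 0% passed on the positive side. That gene is at the lowest deposited ratio on all 3 arrays. At an unadjusted p under 0.05 in limma there were 4 of the 10, Snhg9, Snhg5, Snhg6 and Snhg3, all on the positive side, against 8.99% of all genes on that side. These counts come from the contrast in which the family was proposed, and nothing is read from them. The labels do not state whether each array had its own pool of embryos, so all p-values here rest on array-to-array spread that could be technical alone.

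The library was made of a first set and an extension set of oligos, whose medians differed by array. They were -0.068 for the first set and 0.038 for the extension set on array 1, -0.019 and 0.055 on array 2, and 0.061 and -0.032 on array 3. Of the 10 genes 9 were on the extension set, and Snhg3 was on the first. With the median of each set subtracted on each array, a setting chosen after the data were seen, the family median was 0.33 and 8 genes were again positive on all 3 arrays.

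The host loci hold other genes whose oligos can be set beside the members. Snhg9 overlaps Rps2, a protein of the small ribosomal subunit, in RefSeq. Rps2 had -0.14, 0.29 and -0.32 on arrays 1, 2 and 3 (mean -0.058 ± 0.31, limma adjusted p = 0.903), so it had arrays of both signs where Snhg9 had none. An oligo listed for Snora64, a snoRNA gene within 2000 bases of Snhg9, had -0.60, -0.44 and -0.056 (mean -0.36 ± 0.28, limma adjusted p = 0.395), on the negative side on every array. Rnf151, a RING-finger gene on the same stretch, stood at -0.58 ± 0.54 (limma adjusted p = 0.354). Which part of Snhg9 its oligo covers was not examined, since oligo sequences were not used here, and the part of Rps2 RNA in its ratio was not tested.

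Near the other hosts the measured genes went both ways. St6galnac2, a sialyltransferase next to Snhg16, had 1.10, 0.59 and 0.62 (mean 0.77 ± 0.28, limma unadjusted p = 0.0105, adjusted p = 0.177), while Snhg16 itself stood at 0.13. Dipk1b next to Snhg7 stood at 0.30 ± 0.58, Prss12, a secreted serine protease, next to Snhg8 at -0.25 ± 0.35, and Glrx5, a mitochondrial glutaredoxin of iron-sulphur cluster assembly, next to Snhg10 at -0.50 ± 0.81 (limma adjusted p = 0.629, 0.571 and 0.527). In these 3 genes the arrays had both signs.

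To place the family among host genes, every measured gene with a snoRNA gene inside its bounds in RefSeq was taken. That table gives no strand, and the grouping was made after the members' values had been seen. Protein-coding hosts, 250 genes, had a median mean ratio of 0.017, with 52 (20.8%) positive and 50 (20.0%) negative on all 3 arrays, beside 21.5% and 19.9% of all genes. Those with at least 2 snoRNAs inside, 39 genes, had a median of -0.10, with 6 (15.4%) positive and 14 (35.9%) negative on all 3. On the negative side Ddx39b, an RNA helicase of splicing and mRNA export, stood at -0.90 ± 0.11 and Nop58, a box C/D protein whose gene carries snoRNAs, at -0.21 ± 0.19. On the positive side Taf1d, a subunit of the RNA polymerase I selectivity factor, stood at 0.99 ± 0.12 and Robo2, an axon guidance receptor, at 0.73 ± 0.11. Ddx39b and Robo2 were named after their values were seen. The median of the 10 Snhg genes, 0.35, lay above the median of either set, and that of the 8 with a snoRNA gene inside was 0.39.

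Noncoding hosts with other names were mixed, and their medians differed by gene length. Of 21 such genes 6 (28.6%) were positive and 4 (19.0%) negative on all 3 arrays, and the median was 0.11. The 10 that span under 10000 bases, as all Snhg members do, had a median of 0.54, with 8 positive means, 5 genes positive on all 3 arrays and 1 negative on all 3. The 11 longer ones had a median of -0.043, with 5 positive means, 1 gene positive on all 3 arrays and 3 (27.3%) negative on all 3. Zfas1, which carries 3 snoRNAs in RefSeq and is known from mouse mammary gland, had 1.21, 1.39 and 0.76 (mean 1.12 ± 0.32, limma unadjusted p = 0.00303, adjusted p = 0.123). Rab26os, also short and named after its values were seen, stood at 1.51 ± 0.31 (unadjusted p = 0.000846, adjusted p = 0.109 in limma). On the other side lay Rian, a long imprinted transcript with 11 snoRNA genes inside, at -1.49, -0.60 and -2.15 (mean -1.41 ± 0.78, limma unadjusted p = 0.0110, adjusted p = 0.180). As a reference for noncoding genes, the 1358 measured lncRNA genes outside the family had a median of 0.028, with 19.1% positive and 13.7% negative on all 3 arrays. Neither these lncRNA genes nor the protein-coding hosts were split by length. The bound of 10000 bases was set after the members' values had been seen.

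**Figure D3:**
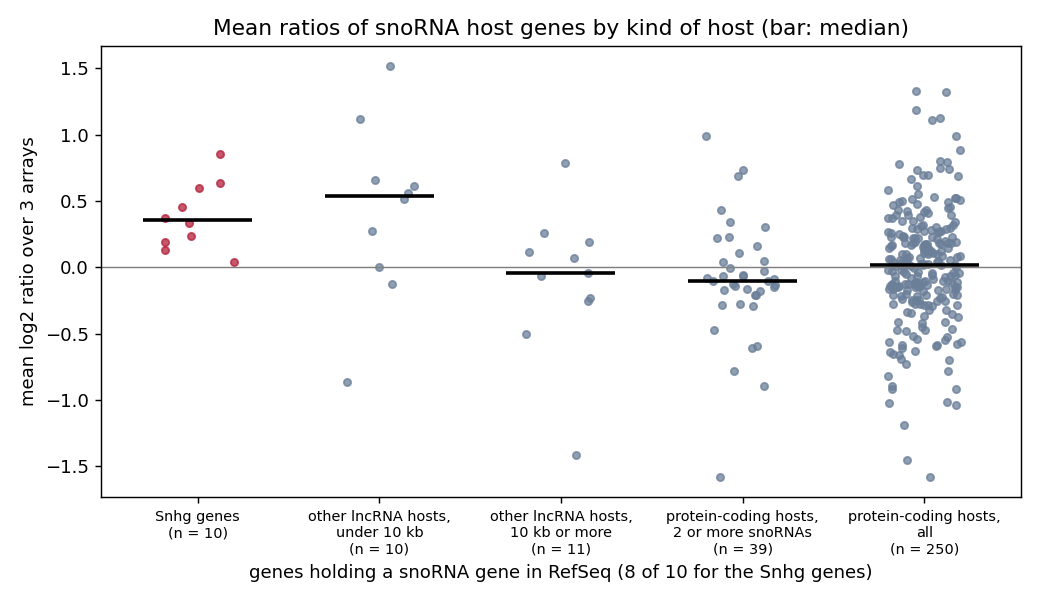
Mean log2 ratio over the 3 arrays (vertical axis) of genes that hold a snoRNA gene in RefSeq, by kind of host (horizontal axis). All 10 Snhg genes are at the left, of which 8 hold a snoRNA gene. Points are genes and bars are medians: 0.35 for the Snhg genes, 0.54 and -0.043 for shorter and longer noncoding hosts with other names, and -0.10 and 0.017 for protein-coding hosts with at least 2 snoRNAs and for all of them.

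Of the noncoding hosts listed from general knowledge, Zfas1, Dancr, Epb41l4aos and Rian were measured and Gas5 was not analysed here. Dancr, known in human epidermis for holding progenitors undifferentiated, had 1.15, -0.19 and 0.87 (mean 0.61 ± 0.71), with array 2 apart from the others. These Dancr values are averages of 2 oligos. Epb41l4aos had -0.21, -0.12 and 0.35 (mean 0.0053 ± 0.30). Limma passed 0 of these 4 over all genes. With an unadjusted p under 0.05 in limma there were 2, against 16.8% of all genes. These were Zfas1 on the positive side and Rian on the negative. A list of 25 protein-coding snoRNA hosts, of which 18 were measured, had a median of -0.068. In it 2 genes were positive and 5 negative on all 3 arrays, beside 21.5% and 19.9% of all genes. In that list Rps20, a ribosomal protein, stood at 0.51 ± 0.035 (limma unadjusted p = 0.0192, adjusted p = 0.213) and Eef2, the elongation factor that moves the ribosome along, at -0.58 ± 0.13 (unadjusted p = 0.0160, adjusted p = 0.203 in limma). The 3 oligos of Eef2 differed, at means of -0.43, -1.11 and -0.19. Ncl, nucleolin, had 0.98, 0.84 and -0.53, with array 3 on the other side of 0. The initiation factor helicases Eif4a2 and Eif4a1 stood at 0.31 ± 0.13 and -0.18 ± 0.10, and Rps12 at -0.17 ± 0.33. The values of Ncl, Eif4a2 and Rps12 are also averages of 2 oligos each.

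The proteins with which snoRNAs work had medians nearer 0 than the family. Of the 4 box C/D proteins, 1 was positive and 1 negative on all 3 arrays, beside 21.5% and 19.9% of all genes. Their median was 0.012. That median was -0.018, -0.14 and 0.19 without array 1, 2 and 3 in turn, so its sign was set by single arrays. Fbl, the methyltransferase fibrillarin, had 0.24, 0.34 and -0.42, and Snu13, which binds the snoRNA kink-turn, 0.49, 0.53 and 0.041. The scaffold proteins Nop58 and Nop56 stood at -0.21 ± 0.19 and -0.028 ± 0.28. The box H/ACA proteins had a median of 0.10 over 3 genes, or 0.17 without array 1 and 0.0064 without array 2, with Nop10 at 0.27, 0.20 and 0.29. Nhp2 and Gar1 of the same complex stood at 0.10 ± 0.17 and -0.023 ± 0.16. Limma passed 0 of these 7 over all genes, and 0 had an unadjusted p under 0.05, against 16.8% of all genes.

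Factors of snoRNP assembly went both ways. The median of 12 genes was -0.018, with 3 positive and 3 negative on all 3 arrays, beside 21.5% and 19.9% of all genes. Without array 1, 2 and 3 in turn it was -0.047, -0.12 and 0.12, and with array weights 0.066, so its sign was not stable. Smn1, the SMN protein of small RNP assembly, had 0.68, 0.78 and 0.39 (mean 0.62 ± 0.20), and Znhit6, a box C/D assembly factor, had 0.55, 0.57 and 0.36 (mean 0.49 ± 0.12). Pih1d1 and Rpap3, subunits of the R2TP chaperone complex, stood at -0.90 ± 0.28 and -0.64 ± 0.24. These 4 were the genes of the list with an unadjusted p under 0.05 in limma (0.0161, 0.0260, 0.00561 and 0.0169), and 0 passed over all genes. The background at that unadjusted threshold was 16.8% of genes tested, with 7.83% on the negative side. Tgs1, which adds the trimethyl cap to small RNAs, had 0.35, 1.87 and -0.30, a mean of 0.64 carried by array 2. Shq1, a box H/ACA assembly factor, had -0.75, 0.13 and -0.44.

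Ribosome biogenesis genes had a median of -0.055 over 17 genes, which stayed negative at -0.030, -0.039 and -0.0035 without array 1, 2 and 3 in turn. Taf1d, a subunit of the selectivity factor of RNA polymerase I whose gene also holds 6 snoRNA genes in RefSeq, had 0.97, 0.89 and 1.12 (mean 0.99 ± 0.12, limma unadjusted p = 0.00188, adjusted p = 0.110). Rrp9, a protein of the U3 snoRNP, had -0.49, -0.75 and -0.46 (mean -0.56 ± 0.16, limma unadjusted p = 0.0188, adjusted p = 0.212). Myc, a transcription factor of ribosome biogenesis genes, had 0.50, 0.33 and 0.35 (mean 0.39 ± 0.094, limma adjusted p = 0.299). Polr1b, a subunit of RNA polymerase I, stood at -0.67 ± 1.05 with arrays of both signs, and Bop1, a factor of the large ribosomal subunit, at -0.53 ± 0.52. Of the 17, limma passed 0 over all genes. Taf1d and Rrp9 were the 2 with an unadjusted p under 0.05 in limma, against 16.8% of all genes.

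Decay of spliced host exons runs through nonsense-mediated decay, and 8 of 14 listed factors were measured. Their median was 0.034, with 1 positive and 1 negative on all 3 arrays, beside 21.5% and 19.9% of all genes. It was 0.10, -0.0035 and -0.084 without array 1, 2 and 3 in turn, and -0.015 with array weights. Smg1, the kinase that phosphorylates the helicase Upf1, had 0.32, 0.31 and 0.080 (mean 0.24 ± 0.14). Smg9 and Smg8, which bind Smg1, stood at -0.80 ± 0.90, with arrays of both signs, and at -0.40 ± 0.46. Rbm8a and Eif4a3 of the exon junction complex stood at 0.18 ± 0.27 and -0.30 ± 0.35, and the endonuclease Smg6 at 0.080 ± 0.36. In the test over all genes (limma) 0 of the 8 passed, and 0 had an unadjusted p under 0.05, against 16.8% of all genes.

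Genes of the 5' TOP class other than ribosomal proteins had a median of 0.022 over 15 genes. It was 0.045 without array 1 and 0.047 without array 3. On all 3 arrays 5 genes were positive and 4 negative, beside 21.5% and 19.9% of all genes. Hnrnpa1 and Eef1b2, each averaged over 2 oligos, were the highest, at 0.22 ± 0.20 and 0.22 ± 0.15. The nucleolar protein Npm1 followed at 0.21 ± 0.23. Eef1a1, the elongation factor that brings in aminoacyl-tRNA, stood at -0.99 ± 0.26, Eif4b, an initiation factor that aids unwinding, at -0.68 ± 0.069, and Eef2, as above, at -0.58. These 3 had an unadjusted p under 0.05 in limma, against 16.8% of all genes. Of the 15, 0 passed over all genes (limma adjusted p = 0.127, 0.155 and 0.203 for Eef1a1, Eif4b and Eef2). The 2 oligos of Eef1a1 were far apart, at means of -1.92 and -0.062.

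**Figure D4:**
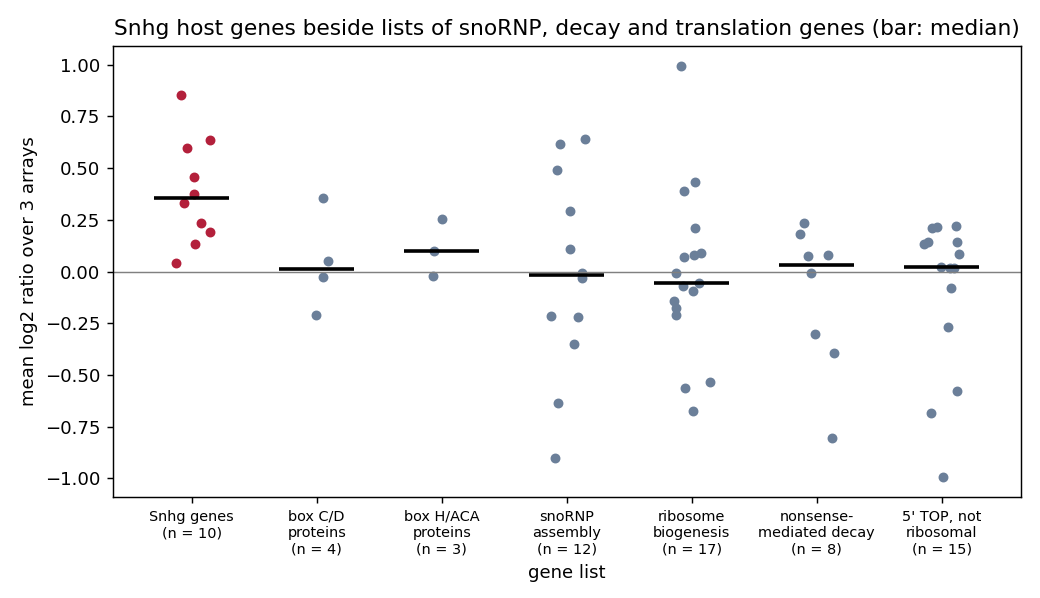
Mean log2 ratio over the 3 arrays (vertical axis) of the Snhg genes, in red, and of genes in lists of snoRNP proteins, assembly, ribosome biogenesis, nonsense-mediated decay and 5' TOP genes along the horizontal axis. Points are genes and bars are medians, which are 0.35 for the Snhg genes and between -0.055 and 0.10 for the 6 lists.

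Lists of markers of cell types that the dissected tissues could hold had medians on both sides of 0, with members that differed within a list. Nephron progenitor markers had positive means in 6 of 8 genes, with a median of 0.48. The exceptions were Osr1 at -0.57 ± 0.067 and Sall1 at -0.012 ± 0.22. Markers of nephron epithelium had positive means in 6 of 6, with a median of 0.95, and Lhx1 and Pax8 had arrays of both signs. Red-cell markers were positive in 0 of 7, with a median of -1.20, from -3.95 for Hbb-bh1 to -0.062 for Hbb-y. Hba-a1 and Hba-x, the latter averaged over 2 oligos, also lay near 0, at -0.084 and -0.21. Somite and muscle markers were positive in 0 of 6, with a median of -0.96. The part of differing cell makeup in the Snhg ratios was not tested.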

How the data were processed

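The data were 3 2-colour arrays of the Compugen mouse oligo library, each with amplified RNA of 13.5 dpc kidney and 10.5 dpc metanephric mesenchyme. The authors deposited 1 log2 ratio per spot and array. Base 2 was inferred: raised to it, 99.7% to 99.8% of values per array give a ratio with 3 decimals (tolerance 0.01 of the last one). Per the labels, images were read with Imagene 5.5, followed by print-tip loess, a normalization between arrays and a lowess curve, with control values under 10 set to 10. Dye, numerator and genome build are not given in the sources used here, and no sign was turned. Pairs of arrays correlated at r = 0.46, 0.16 and 0.16 (1 with 2, 1 with 3, 2 with 3) across 21094 oligos. Spot intensities were not used here.

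Of 22702 spots, 883 control spots were left out. Oligos of 1 symbol were averaged, and oligos without exactly 1 symbol were kept singly. The 19635 genes tested, all with a value on all 3 arrays, were thus 14746 symbols and otherwise single oligos. They were tested with limma 3.58.1 in R 4.3.3 (intercept only, two-sided, Benjamini-Hochberg adjustment). Precision is limited by the number of arrays. The members, lists and tests were chosen with earlier results of these data known. Named genes were all Snhg symbols and, of each list, genes with an unadjusted p under 0.05 or with the largest means on either side. A change shared by most genes would be removed by the loess centring. Start-site sequences and gene positions come from RefSeq tables (GRCm38.p6). The fit was checked on simulated data with shifts larger than any member's mean. The check thus does not cover ratios of the members' size. Alternatives were leaving out each array, oligos singly, centring, scaling, array weights, missing values and the floor.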

Additional observations from a re-analysis of the deposited data

How the results depend on the processing

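The median of the Snhg genes, 0.35, stayed positive under all 10 alternatives, and ran from 0.32 to 0.40 with 1 array left out. Taking oligos singly, admitting missing values and leaving out the floor could not change any member's mean. Each member has 1 oligo, a value on every array and none at the lowest deposited ratio. With array weights it was 0.32. The number positive on every array used was 8 or 9. Every member kept a positive mean under the 10 alternatives except Snhg7, whose mean was -0.016 without replicate 1. Without replicate 2 the mean of Snhg16 was 0.0018. The single gene that passed limma over all genes, no member of the family, was lost with scaling between arrays, without genes at the lowest deposited ratio (which leaves that gene out), and with any 1 array left out, where 0 genes passed each time (3359, 3307 and from 1678 to 3913 genes at an unadjusted p under 0.05). With fewer arrays fewer residual degrees of freedom are left, and the cause of the loss under scaling was not tested. Limma passed 0 of the related genes under every alternative. Each ratio is already a difference of the tissues within 1 array, so the test was paired by array and no further block was fitted. The medians of the box C/D protein, snoRNP assembly and nonsense-mediated decay lists changed sign with 1 array left out, as given beside them. Without spot intensities, how far signal over background limits single oligos was not examined.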

Other observations

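The oligo left out because it listed an Snhg symbol together with a second symbol had log2 ratios of -0.44, 0.65 and 0.44 on arrays 1, 2 and 3 (mean 0.21 ± 0.58, SD, n = 3 arrays), and was below 0 on array 1 where 9 of the 10 members were above it.

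Several short noncoding snoRNA hosts outside the Snhg symbols also stood on the positive side. The gene 2410006H16Rik, with 3 snoRNA genes inside in RefSeq, had 0.85, 0.80 and 0.33 (mean 0.66 ± 0.29), AI450353 had 0.63, 0.63 and 0.42 (mean 0.56 ± 0.13), and 1110038B12Rik had 0.40, 0.95 and 0.19 (mean 0.51 ± 0.39). An exception was 2700038G22Rik, at -0.54, -0.56 and -1.49 (mean -0.86 ± 0.54). These 4 genes were chosen after their values were seen. Limma passed 0 of them over all genes (adjusted p = 0.211, 0.206, 0.327 and 0.229). At an unadjusted p under 0.05 in limma there were 3 of them, all but 1110038B12Rik, against 16.8% of all genes. Among the other short hosts, 4930591E09Rik stood at -0.13 ± 0.21 and 5730408K05Rik at 0.27 ± 0.46, both with arrays of both signs.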
